A study of Homo sapiens with 2 samples.

Results

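The genes of ribosome biogenesis and of RNA polymerase I were compared between bort-treated and untreated leukaemia cells. Members were taken from the gene table by symbol. Every POLR1 gene was included. So was every UTP, NOP, RRP, NOL, NOC and GNL gene with a number after these letters, which leaves out NOLC1. IMP3, IMP4, BOP1, PES1, LAS1L, FBL, NCL, NPM1, DKC1, BYSL, WDR12 and DDX21 were added. This gave 59 genes of the 10987 in the table, and all 59 had a value above 0 in both libraries. No hyphenated read-through name had to be left out.

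RNA sequencing had been carried out on 2 libraries labelled THP-1, a monocytic leukaemia cell line. The first came from cells given bortezomib (bort), an inhibitor of the proteasome, for 24 hours, and the other from cells left untreated. The labels do not give the dose for these libraries. Each condition has 1 library, so no difference below has a replicate check, no test was run, and "higher" and "lower" compare these libraries only. Levels are FPKM, read fragments scaled to transcript length and to the size of the library, which allow levels of different genes to be compared. A fold change is the difference of log2(FPKM + 1), bort-treated against untreated, and 2-fold or more was taken as the threshold.

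The expression profile did not match the cell type on the labels. Of 12 monocytic and myeloid markers, 6 were in the table, while CD14, CEBPA, CSF1R, FCGR1A, MPO and S100A8 were not listed. The 6 listed markers summed to 24.8 FPKM in the untreated and 64.4 FPKM in the bort-treated library, with LYZ, which encodes lysozyme, the most abundant at 7.61 and 28.7 FPKM. Of 12 erythroid markers, 11 were listed, and they summed to 3759 FPKM in the untreated and 3235 FPKM in the bort-treated library. The fetal globin gene HBG1 led them at 1487 and 1536 FPKM, and SLC4A1 was not listed. The globin level hides other erythroid markers: 8 of the 11 were below 0 and 4 were lower by 2-fold. KLF1, an erythroid transcription factor, had 147 and 17.4 FPKM (-3.01). GATA1, a master regulator of the lineage, had 161 and 48.7 FPKM (-1.71). The embryonic globin HBZ had 584 and 158 FPKM (-1.88), and the erythropoietin receptor gene EPOR had 8.43 and 2.83 FPKM (-1.30). Of 6 lymphoid markers, 3 were listed, with sums of 8.46 and 15.8 FPKM and CD3D the most abundant. The samples are therefore called the library labelled untreated and the library labelled bort-treated, or the untreated and the bort-treated library for short. These markers differed between the libraries, several in the same direction as the genes described below, and their part in the results below was not tested.

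Ribosomes are made in the nucleolus. RNA polymerase I transcribes the ribosomal DNA into a long precursor, which small nucleolar RNA-protein particles (snoRNPs) modify and which the small-subunit processome and the large-subunit assembly factors cut, fold and load with ribosomal proteins. Growing cells spend much of their transcription on this pathway, and leukaemic blasts often have prominent nucleoli.

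Most ribosome biogenesis genes had a lower level in the bort-treated library. Of the 59 members, 18 were lower by 2-fold or more, which is 30.5% of them, against 10.2% of all genes in the table. No member was higher by 2-fold, against 8.08% of all genes. A fold change below 0 was found for 51 members, or 86.4%, against 49.7% of all genes. At 1.5-fold, 28 members were lower, against 21.6% of all genes, and 1 was higher, against 20.8%. The median log2 fold change was -0.49 over the members and 0.00490 over the table. The members' summed level was 3045 FPKM in the untreated and 2005 FPKM in the bort-treated library, a change of -34.2%, and their share of all FPKM was 1.45% and 0.905%. In these bulk libraries, fewer cells with a high level and less RNA per cell cannot be told apart.

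The difference was not the same throughout the pathway. Fold changes of the members ran from -1.94 for BOP1 to 0.61 for UTP23, with quartiles at -1.07 and -0.23. In the whole table, 152 genes had a lower fold change than BOP1. Among the 7263 genes with a mean level at or above that of the lowest member, 12.7% were lower by 2-fold and the median was -0.05. Not every symbol in the rule belongs to a ribosome factor: without NOL3, NOL4L and GNL1, 17 of 56 members were lower by 2-fold and the median was -0.48.

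**Figure D1:**
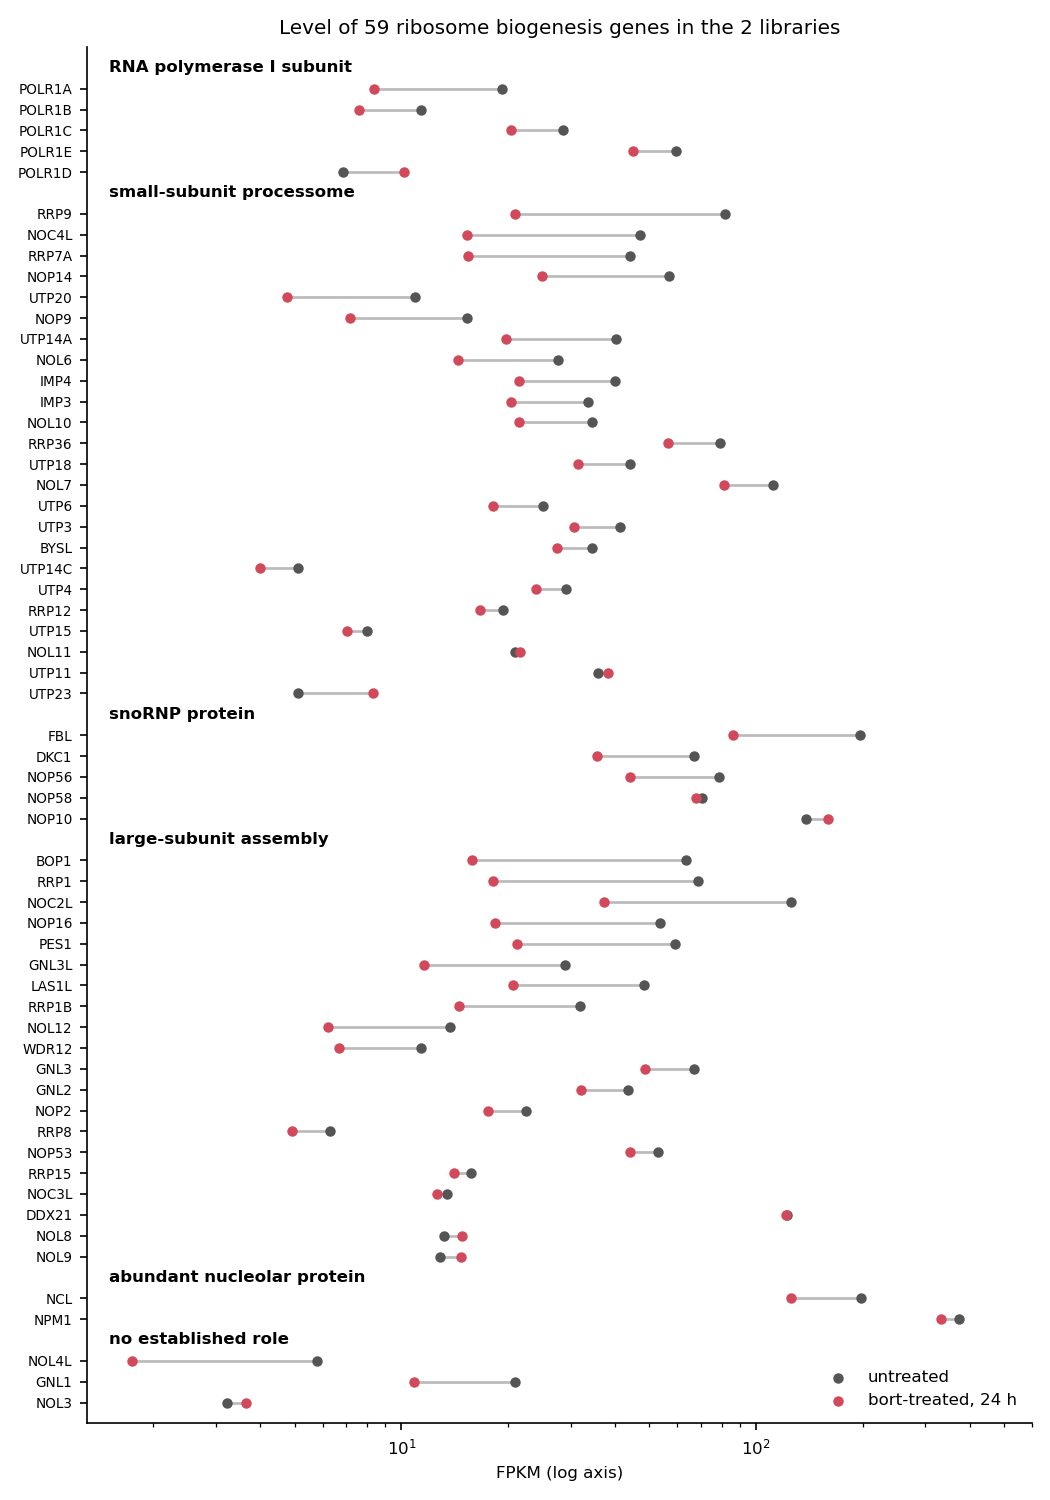
FPKM of each of the 59 members on a log axis, grouped by role, with grey points for the untreated and red points for the bort-treated library. The red point lies to the left of the grey one for 51 members, and the widest gaps are those of BOP1, RRP9 and RRP1.

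Promoter sequence was examined next, since many of these genes were lower together. RefSeq promoters on GRCh38.p14, from 250 bases before to 50 bases after the annotated start, were found for 52 members. There was no entry for BOP1, NOL10, NOP58, POLR1E, RRP12, RRP1B and UTP23. The E-box CACGTG, which reads the same on both strands and is the classical binding motif of MYC with MAX and of the USF factors, was present in 18 of the 52 promoters, or 34.6%. It was present in 10.9% of the promoters of 8544 genes of the table and in 7.43% of all 27305 promoters. The windows below run from 100 bases before to 25 bases after the start, so they hold upstream sequence and the first bases of the transcript, and the E-box is in capitals. RRP9, PES1, FBL, NOP14 and UTP20 are the members lower by 2-fold that carry it. NOL8 and NOP10 carry it and had fold changes above 0 on the deposited scale. With the trend on GC content removed, as described further on, NOL8 was at -0.18 and NOP10 at 0.18. RRP1 and NOC2L were among the lowest without it anywhere in the promoter. On the minus strand lie RRP9 at chr3:51941880-51942004, PES1 at chr22:30591886-30592010, FBL at chr19:39846355-39846479, NOP14 at chr4:2963382-2963506, NOL8 at chr9:92325326-92325450, NOP10 at chr15:34343112-34343236 and NOC2L at chr1:959232-959356. On the plus strand lie UTP20 at chr12:101280005-101280129 and RRP1 at chr21:43789477-43789601.
RRP9: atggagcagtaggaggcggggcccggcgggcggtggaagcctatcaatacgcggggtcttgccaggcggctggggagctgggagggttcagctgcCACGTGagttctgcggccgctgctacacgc
PES1: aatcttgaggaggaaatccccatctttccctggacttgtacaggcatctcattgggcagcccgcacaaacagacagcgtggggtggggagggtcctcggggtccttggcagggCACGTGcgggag
FBL: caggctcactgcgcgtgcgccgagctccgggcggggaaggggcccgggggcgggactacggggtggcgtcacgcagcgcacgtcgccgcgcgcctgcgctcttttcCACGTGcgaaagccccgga
NOP14: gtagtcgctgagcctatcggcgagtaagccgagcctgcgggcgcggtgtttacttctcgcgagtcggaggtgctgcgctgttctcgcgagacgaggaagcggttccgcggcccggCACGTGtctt
UTP20: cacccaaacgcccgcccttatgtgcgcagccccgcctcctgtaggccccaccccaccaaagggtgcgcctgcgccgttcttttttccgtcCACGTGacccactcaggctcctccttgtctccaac
NOL8: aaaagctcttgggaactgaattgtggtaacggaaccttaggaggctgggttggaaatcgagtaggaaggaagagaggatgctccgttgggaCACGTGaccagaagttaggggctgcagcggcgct
NOP10: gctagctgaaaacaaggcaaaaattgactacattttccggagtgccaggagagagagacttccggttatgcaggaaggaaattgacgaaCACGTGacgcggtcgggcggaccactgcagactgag
RRP1: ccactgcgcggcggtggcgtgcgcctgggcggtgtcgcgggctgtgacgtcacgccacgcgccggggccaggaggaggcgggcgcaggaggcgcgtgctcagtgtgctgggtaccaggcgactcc
NOC2L: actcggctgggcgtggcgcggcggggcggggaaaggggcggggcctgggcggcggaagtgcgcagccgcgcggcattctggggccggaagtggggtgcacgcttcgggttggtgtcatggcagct

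The E-box sat close to the start of transcription in most of the promoters that had it. Counting the start as position 1, its first base lay within 20 bases of the start in 13 of the 52 promoters, or 25%, against 2.11% for genes of the table and 1.205% for all promoters. In RRP9 the first base was at position -5, and in FBL, at 7. Promoters with the motif occurred both among members lower by 2-fold and among the others. It was present in 5 of 16 members lower by 2-fold with a promoter entry and in 13 of 36 members within 2-fold. Members with it had a median log2 fold change of -0.67 (18 genes) and members without it -0.50 (34 genes). Over the table the medians were -0.13 for 931 genes with it and 0.03 for 7613 genes without. Of these, 128 genes with it and 691 without it were lower by 2-fold. Whether the motif goes with the fold change was not tested. A match is a description of the letters and does not show binding.

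**Figure D2:**
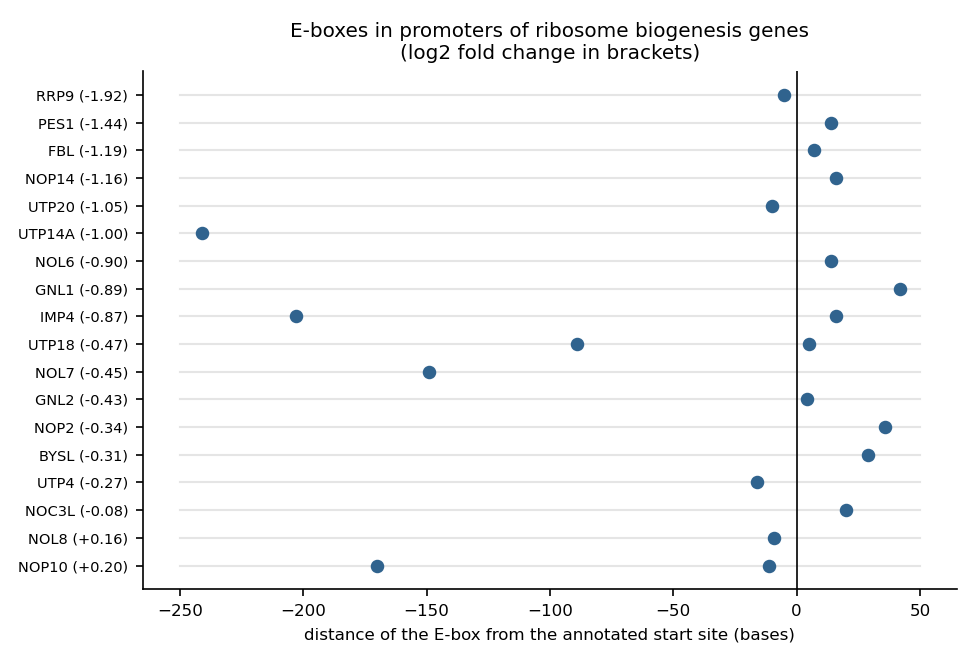
Distance in bases from the annotated start site to the first base of each E-box in the 18 member promoters that hold it, ordered by log2 fold change (in brackets). In 13 promoters a point lies within 20 bases of the start, and these include members with fold changes from -1.92 for RRP9 to 0.20 for NOP10.

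Other promoter motifs were searched on both strands in the same windows of 300 bases. The ETS motif CCGGAAG was present in 36.5% of member promoters, against 21.3% for genes of the table and 10.7% for all promoters. The SP1 motif GGGCGG was present in 67.3%, against 72.5% and 44.6%. The TATA motif TATAAA was present in 3.85%, against 5.13% and 12.0%. None of these motifs shares its full letters with the E-box, and they may lie side by side or overlap at their ends. Among the 126 genes of the other assembly and RNA polymerase I lists described below, 100 had a promoter entry and 26 of these held the E-box. These 26 were unevenly spread: 14 of 35 small-subunit factors (40%), 10 of 43 large-subunit factors (23.3%), 2 of 12 exosome genes (16.7%) and 0 of 10 other RNA polymerase I factors. It was present in 3 of 7 RNA polymerase III subunits, in 0 of 8 RNA polymerase II subunits and in 4 of 67 cytosolic ribosomal protein genes (5.97%).

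RNA polymerase I itself was represented by 5 members, of which 4 were lower in the bort-treated library and 1 passed 2-fold. Of all genes, 49.7% were lower and 10.2% were lower by 2-fold. POLR1A, the largest and catalytic subunit, had 19.2 FPKM in the untreated and 8.35 FPKM in the bort-treated library, a log2 fold change of -1.11. POLR1B, the second-largest subunit, which forms the active centre together with it, had 11.3 and 7.59 FPKM (-0.52). POLR1E, which takes part in initiation, was the most abundant of the 5 at 59.6 and 45.1 FPKM (-0.39). The subunits shared with RNA polymerase III went different ways. POLR1C had 28.5 and 20.3 FPKM (-0.47), whereas its partner POLR1D had 6.86 and 10.2 FPKM, the highest fold change of the role (0.51). The median of the 5 was -0.47 and their sum 125 and 91.6 FPKM. With the trend on GC content removed, as described further on, POLR1A was at -0.98 and none of the 5 passed 2-fold.

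The remaining subunits of the enzyme are listed under older symbols or under the names of RNA polymerase II. ZNRD1, a small subunit needed for cleavage of the transcript, had 18.8 and 7.46 FPKM (-1.23). CD3EAP, the partner of POLR1E, had 18.6 and 8.12 FPKM (-1.11), while TWISTNB, a stalk subunit, had 11.8 and 11.7 FPKM (-0.01). With these and the 5 subunits that all 3 nuclear RNA polymerases share, 13 subunits were listed, of which 5 were lower by 2-fold and 11 were below 0, with a median of -0.52. The 6 subunits that are found in RNA polymerase I alone had a median of -0.81, with 3 lower by 2-fold. Removal of the GC trend placed ZNRD1 at -1.04, CD3EAP at -0.86 and TWISTNB at -0.54, and left 3 of the 13 and 1 of the 6 past the threshold.

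Other genes of RNA polymerase I transcription lay on both sides of 0. This list took in the subunits CD3EAP, ZNRD1 and TWISTNB again, together with factors for initiation, release, termination and silencing and the topoisomerase gene TOP1. Of its 17 genes 16 were listed, with 6 lower and 2 higher by 2-fold and a median of -0.02. With the GC trend removed, 4 were lower, 0 were higher and the median was -0.37. UBTF, which binds along the ribosomal DNA and opens it for transcription, had the lowest fold change of this list, with 44.5 and 10.9 FPKM (-1.93). TCOF1, the nucleolar protein treacle that works with it, had 38.2 and 15.3 FPKM (-1.27, or -0.87 with the GC trend removed). By contrast, subunits of the selectivity complex at the promoter included both genes that were higher: TBP, the TATA-binding protein, at 9.49 and 20.2 FPKM (1.02), and TAF1D at 11.3 and 23.8 FPKM (1.01). With the GC trend removed, TBP was at 0.94 and TAF1D at 0.73. The other listed subunits of this complex were TAF1A (0.30), TAF1C (-0.03) and TAF1B (-0.18). RRN3, the initiation factor that joins the polymerase to this complex, had 13.3 and 20.03 FPKM (0.55).

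The small-subunit processome, which assembles on the nascent precursor and releases the small-subunit RNA, had 24 members. In the bort-treated library 21 of them (87.5%) were below 0 and 6 (25%) were lower by 2-fold, against 49.7% and 10.2% of all genes. The median was -0.48 and the sums were 892 and 551 FPKM. When scaled by the upper quartile, 4 were lower by 2-fold, and with the GC trend removed, 5. RRP9, a protein of the U3 snoRNP at the core of the processome and the first of the promoters shown above, had 81.7 FPKM in the untreated and 20.9 FPKM in the bort-treated library (-1.92). NOC4L and NOP14 form a pair that is needed for nuclear maturation of the small subunit. Their levels were 47.2 and 15.3 FPKM for NOC4L (-1.56, or -0.95 with the GC trend removed). For NOP14 they were 57.0 and 24.96 FPKM (-1.16). RRP7A, a further processome component, had 44.2 and 15.5 FPKM (-1.46). UTP20, a very large scaffold protein, had 10.9 and 4.75 FPKM (-1.05), against medians of 34.5 and 20.6 FPKM for the role.

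NOP9 and UTP14A marked the threshold. NOP9, an RNA-binding protein of the early small subunit, had 15.4 and 7.17 FPKM and lay just past 2-fold (-1.001). UTP14A, a cofactor of the helicase that takes the U3 RNA off the precursor, had 40.3 and 19.7 FPKM and lay just short of it (-0.996). NOL7 was the most abundant gene of the role, at 112 and 81.2 FPKM (-0.45). Only NOL11, UTP11 and UTP23 of the 24 were above 0 on the deposited scale. UTP23, which is needed for early cleavage of the precursor, had the highest fold change of all 59 members, with 5.11 and 8.30 FPKM (0.61). After removal of the GC trend it was at 0.06, and NOL3 was highest at 0.68.

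Subcomplexes of the processome were also compared. The U3-associated proteins IMP3 and IMP4 had similar fold changes. IMP3 had 33.7 and 20.4 FPKM (-0.70). IMP4 had 40.0 and 21.5 FPKM (-0.87). Their partner MPHOSPH10, which is outside the symbol rule, went the other way. It had 21.7 and 33.4 FPKM (0.60, or 0.27 with the GC trend removed). The subcomplex that binds first and is linked to transcription of the ribosomal DNA includes UTP4, UTP15 and NOL11. UTP4 had 29.03 and 23.99 FPKM (-0.27), UTP15 had 8.01 and 7.02 FPKM (-0.17), and NOL11 had 20.9 and 21.6 FPKM (0.04). These were closer to 0 than IMP3 and IMP4 on the deposited scale and in every alternative run except removal of the GC trend. There the values were -0.36 for UTP4, -0.63 for UTP15 and -0.30 for NOL11, against -0.30 for IMP3 and -0.52 for IMP4.

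Other small-subunit factors outside the symbol rule showed a similar split. Of 45 such genes, the snoRNP protein SNU13 among them, 42 were listed. EMG1 stood on a pair of identifiers, and of these 43 rows 11 were lower and 0 higher by 2-fold, with a median of -0.29. The median was -0.18 when scaled by the upper quartile and -0.57 with the GC trend removed, where 8 were lower. TBL3, a WD-repeat protein of the processome, had the lowest fold change, with 30.8 and 7.81 FPKM (-1.85). RIOK3, an atypical kinase associated with late small-subunit precursors, had the highest, with 11.9 and 20.6 FPKM (0.75).

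The snoRNP proteins carry out and guide the chemical modification of ribosomal RNA. Of the 5 members, only FBL was lower by 2-fold (20%, against 10.2% of all genes). The median was -0.82, and the sums were 551 and 392 FPKM. With the GC trend removed, FBL was at -0.83, none of the 5 passed 2-fold and the median was -0.52. FBL, the methyltransferase of the box C/D particles, had 197 FPKM in the untreated and 85.9 FPKM in the bort-treated library (-1.19). Its partners in the same particle differed from each other. NOP56 had 78.8 and 44.2 FPKM (-0.82), and NOP58 had 70.2 and 67.5 FPKM (-0.06). Their difference was smaller with the GC trend removed, at -0.52 for NOP56 and -0.39 for NOP58. SNU13, which binds the box C/D RNA directly, had 12.8 and 16.2 FPKM (0.31).

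The box H/ACA particles, which convert uridine to pseudouridine, showed the same unevenness. DKC1, the pseudouridine synthase dyskerin, had 66.9 and 35.5 FPKM (-0.90). NOP10, a small protein of the same particle, had 138 and 159 FPKM, the highest mean level and the only fold change above 0 among these 5 members (0.20). Its E-box near the start is shown above. The other proteins of the particle were NHP2, at 106 and 51.0 FPKM (-1.04), and GAR1, at 37.2 and 32.3 FPKM (-0.20). With the GC trend removed, NHP2 was at -0.71 and GAR1 at -0.26.

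Large-subunit assembly had the most members past the threshold: 9 of 20 (45%) were lower by 2-fold, against 10.2% of all genes. In this role 18 (90%) were below 0, against 49.7% of all genes. The median was -0.57, and the sums were 874 and 496 FPKM, a change of -43.3%. When scaled by the upper quartile, 7 of the 20 were lower by 2-fold, and with the GC trend removed, 7 of 19. The PeBoW complex, which is required for processing of the large-subunit RNA, consists of PES1, BOP1 and WDR12. BOP1 had 63.5 FPKM in the untreated and 15.8 FPKM in the bort-treated library, the lowest fold change of all 59 members (-1.94). PES1 had 59.1 and 21.2 FPKM (-1.44). WDR12 had 11.4 and 6.69 FPKM and did not reach 2-fold (-0.69). With the GC trend removed, PES1 and WDR12 were at -1.07 and -1.08, and BOP1 had no GC value.

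Factors of the early large-subunit particles were also among the lowest. RRP1, a nucleolar protein of early particles, had 68.4 and 18.1 FPKM (-1.86), and its paralogue RRP1B had 31.9 and 14.5 FPKM (-1.08). NOC2L, which escorts large-subunit precursors out of the nucleolus and is also known as an inhibitor of histone acetylation, had 125 and 37.3 FPKM (-1.72). Its partner NOC3L had 13.4 and 12.6 FPKM (-0.08). NOP16, a nucleolar protein of the pre-large subunit, had 53.5 and 18.4 FPKM (-1.49). NOL12, an RNA-binding protein with nuclease activity, had 13.7 and 6.20 FPKM (-1.03).

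The nucleolar GTPases and the machinery that cuts the internal spacer were uneven. GNL3L had 28.9 and 11.6 FPKM (-1.25), whereas its paralogue GNL3, known as nucleostemin, had 66.9 and 48.6 FPKM (-0.45). LAS1L, the endonuclease that cuts the spacer between the RNAs of the large subunit, had 48.4 and 20.7 FPKM (-1.19). NOL9, the kinase that acts with it on the cut end, had 12.8 and 14.7 FPKM, the highest fold change of the role (0.18). Genes of the complex that LAS1L and NOL9 join also had unequal fold changes. WDR18 had 53.4 and 18.2 FPKM (-1.50) and PELP1 had 15.5 and 7.01 FPKM (-1.04). TEX10 had 7.62 and 8.93 FPKM (0.20). With the GC trend removed, WDR18 was at -0.84, PELP1 at -0.73 and TEX10 at -0.01. The SUMO protease SENP3 had 7.86 and 15.6 FPKM (0.91), but the read-through gene SENP3-EIF4A1, which overlaps it, had 83.8 and 7.31 FPKM, so the level of SENP3 is uncertain. DDX21, a helicase that acts on both polymerase I transcription and rRNA processing, had the highest mean level of the role and nearly equal levels in the libraries, 123 and 122 FPKM (-0.01).

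Large-subunit factors outside the symbol rule, a list that also holds the H/ACA proteins NHP2 and GAR1, had 51 of 55 genes listed. Of these 12 were lower and 2 higher by 2-fold, with a median of -0.41. The counts were 8 and 3 when scaled by the upper quartile, and 4 and 1 with the GC trend removed. PPAN, which is needed for large-subunit maturation, had the lowest fold change, with 40.3 and 11.4 FPKM (-1.74). Its read-through partner PPAN-P2RY11 had 12.9 and 10.03 FPKM (-0.34), so the split of reads between them, and the place of PPAN in the list, are uncertain. NMD3, the adaptor that exports the large subunit from the nucleus, had the highest, with 14.0 and 35.6 FPKM (1.29). Without the GC trend NMD3 was at 0.83, and the gene then higher by 2-fold was SENP3, whose level is uncertain. The RNA exosome trims precursor ends and degrades the excised spacers. Of 17 of its subunits and cofactors 16 were listed, with 4 lower and 0 higher by 2-fold and a median of -0.37. The ring subunit EXOSC4 was lowest at 46.2 and 14.8 FPKM (-1.57), and EXOSC1, which caps the ring, was highest at 5.55 and 9.37 FPKM (0.66).

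Nucleolin and nucleophosmin are among the most abundant proteins of the nucleolus. NCL had 198 FPKM in the untreated and 125 FPKM in the bort-treated library (-0.66). NPM1, the member with the highest level in both libraries and a gene often mutated in acute myeloid leukaemia, had 374 and 332 FPKM (-0.17). Neither passed 2-fold. NPM1 has processed pseudogenes, and reads shared with them make its level uncertain.

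The other 3 members carry a matching symbol without an established role in ribosome assembly. NOL4L had 5.78 and 1.74 FPKM (-1.31). The GTPase gene GNL1 had 21.0 and 10.9 FPKM (-0.89), the highest mean level of the 3. NOL3, an inhibitor of apoptosis, had 3.22 and 3.64 FPKM (0.14).

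The comparison with the other nuclear polymerases and with the ribosome itself gave other medians. RNA polymerase II subunits, 12 listed, had 2 lower and 0 higher by 2-fold and a median of -0.08. The list includes POLR2E, POLR2F, POLR2H, POLR2K and POLR2L, which all 3 enzymes share and which were counted above with RNA polymerase I. Both genes lower by 2-fold, POLR2L and POLR2F, are among these, and POLR2F had 14.8 and 5.25 FPKM (-1.34). POLR2L, a small subunit found in all 3 enzymes, was lowest at 165 and 56.8 FPKM (-1.52), and POLR2K, also found in all of them, was highest at 19.7 and 40.1 FPKM (0.99). RNA polymerase III subunits, 10 listed, had 2 lower and 1 higher and a median of -0.07. POLR3F had the highest fold change of these, with 1.52 and 8.52 FPKM (1.92). The signs of these medians, and of that of the other RNA polymerase I factors, depended on the scale. With libraries scaled by the upper quartile they were 0.02 for RNA polymerase II, 0.03 for RNA polymerase III and 0.08 for the other RNA polymerase I factors. With the GC trend removed they were 0.08, -0.17 and -0.37.

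Genes of the cytosolic ribosomal proteins, the building blocks on which the assembly factors act, lay on the other side of 0. Of 83 listed, 62 were above 0, with a median of 0.30. At 2-fold, 7 were higher, or 8.43%, close to the 8.08% of all genes, and 0 were lower. Their sum was 18720.5 FPKM in the untreated and 22534 FPKM in the bort-treated library, or 8.91% and 10.2% of all FPKM. RPL29 had the highest fold change, with 51.7 and 168 FPKM (1.68). RPS26 had the lowest, with 173 and 106 FPKM (-0.71). Many ribosomal protein genes have processed pseudogenes, so single values are uncertain. The median was above 0 under every scaling tried, and that of the 59 members below 0.

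**Figure D3:**
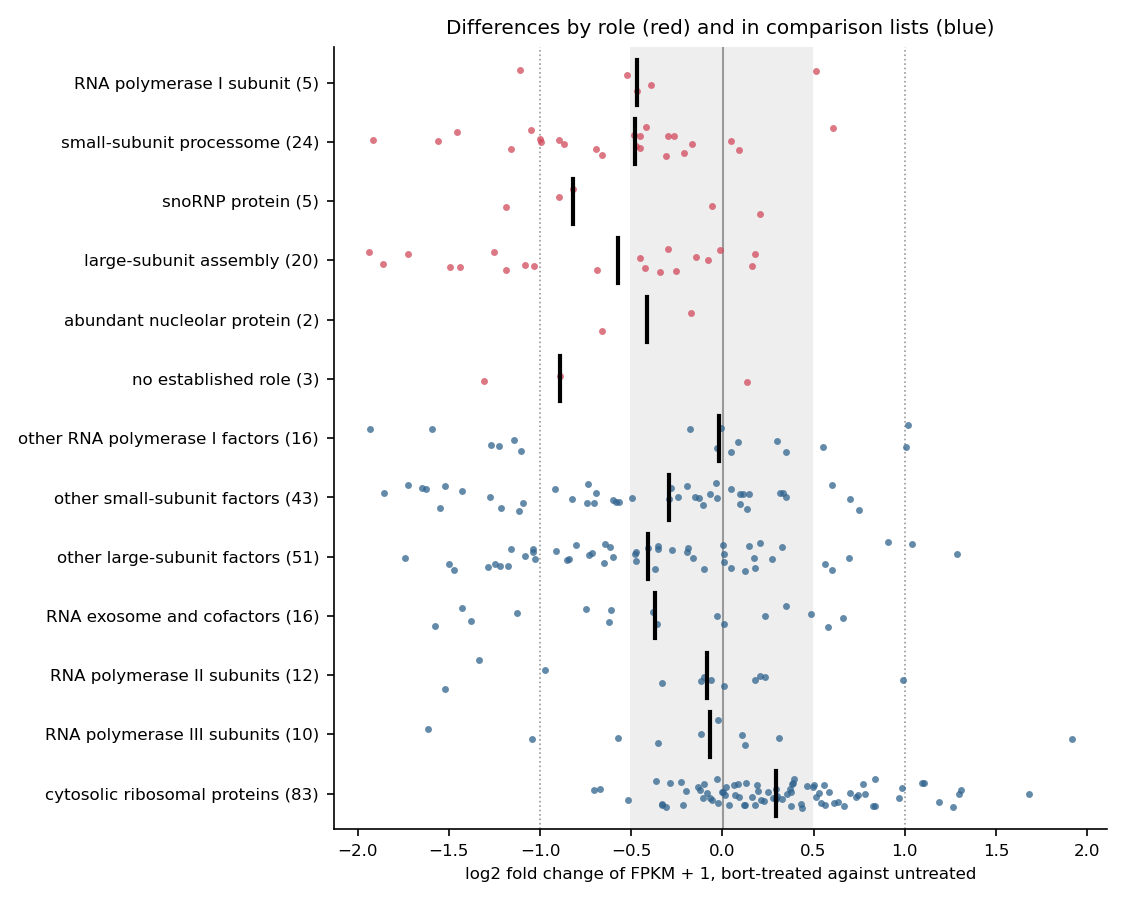
Log2 fold change of FPKM + 1 for each gene, by role of the members (red) and in the comparison lists (blue), with the number of genes in brackets and black bars for medians. The grey band spans the quartiles of all 10987 genes, dotted lines mark 2-fold, and the medians run from -0.89 in the members without an established role to 0.30 in the cytosolic ribosomal proteins.

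Fold changes in these libraries went with base composition. Over the 10907 genes that could be matched to a GENCODE 29 transcript, Spearman's rho between GC content and log2 fold change was -0.49. It was -0.57 over the 58 matched members. Both values describe genes that share the same 2 libraries and are not independent replicates. The median GC content was 48.5% for the members and 49.1% for all genes, so the members as a group were not richer in GC. Within the members, however, those lower by 2-fold had a median of 54.1% and the others 46.3%.

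The members' median was below that of all genes on both sides of the table's median GC content. Below it, 30 members had a median log2 fold change of -0.30, against 0.30 for all genes there. Only UTP20 of these 30 was lower by 2-fold, or 3.33%, against 2.31% of all genes. At or above it, 28 members had a median of -1.06 and 16 were lower by 2-fold, or 57.1%, against a median of -0.32 and 17.95% for all genes. When the GC trend was removed by lowess, the median was -0.60 for the members and 0.00514 for all genes. After this step 13 members were lower by 2-fold, 11 of them among the original 18, against 6.16% of all genes, and 50 of 58 were below 0. The 6 members that no longer passed 2-fold were FBL, LAS1L, NOC4L, NOL12, NOP9 and POLR1A. Some contrasts between partners were narrower after this step. NOC3L was then at -0.60 against -1.31 for NOC2L, and GNL3 at -0.67 against -1.09 for GNL3L, while DDX21 was at -0.35. The source of the GC trend was not tested. Transcript length showed a rho of 0.04 with the fold change over the members and 0.17 over all genes.

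**Figure D4:**
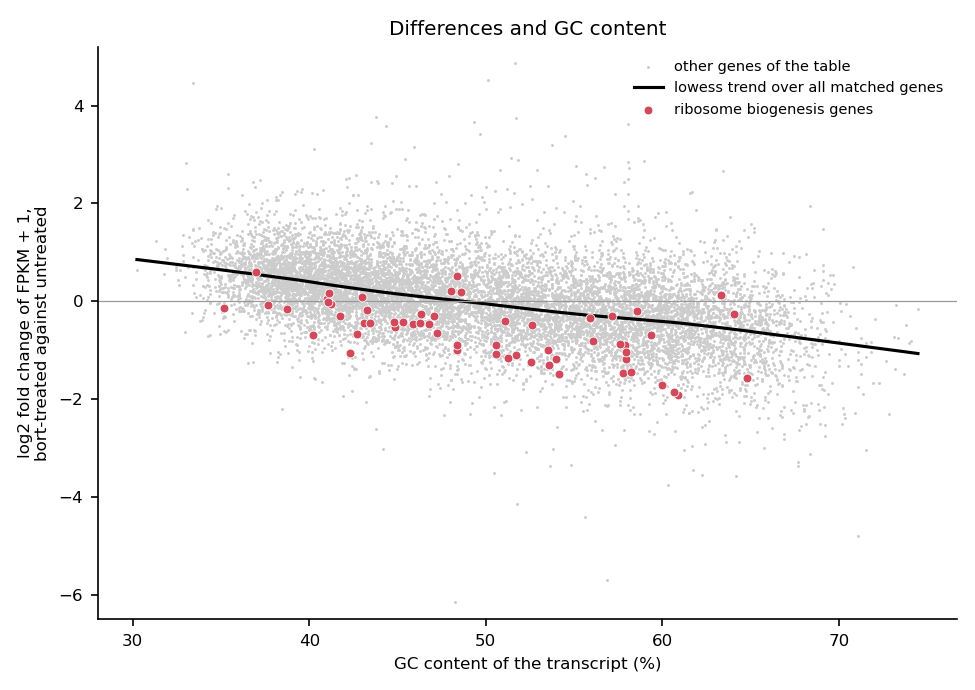
Log2 fold change of FPKM + 1 against the GC content of the transcript in per cent, for 58 members (red) and the other matched genes (grey), with the lowess trend as a black line. The trend falls with GC content, and 50 of the 58 members lie below 0 once it is removed.

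Genome position and gene structure were also examined. The 58 members with a GENCODE 29 entry lie on 21 chromosomes, with at most 7 on a chromosome, chromosome 2. Small nucleolar RNA genes lie inside 8 of the 58, or 13.8%, against 1.84% of 10907 genes of the table. The hosts were POLR1C, NOL11, DKC1, NOP56, NOP58, GNL3, NOP53 and NCL. None of the 8 was lower by 2-fold, against 10.2% of all genes, 7 were below 0, and their median was -0.46. The 50 members without such genes had 17 lower by 2-fold and a median of -0.50. Median GC content was 47.0% for the 8 hosts and 50.6% for the 50 others. With the GC trend removed, the medians were -0.53 and -0.62, and 0 and 13 were lower by 2-fold. Levels of 5 members may include a neighbour on the same strand, since NOP9, UTP14C, UTP4, NOL12 and NOP2 overlap another annotated gene. UTP14C is a retrotransposed copy of UTP14A, so reads of this pair can also be shared.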

How the data were processed

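RNA sequencing of 2 libraries was used, 1 from bort-treated and 1 from untreated cells. Alignment was done by the authors in HISAT2 2.0.4. StringTie 1.2.3 then gave the deposited level of each gene as FPKM. The submitters' notes name GRCh37; the annotation is not given in the sources used here, and the labels and the study's methods name different library kits. The smallest value per gene, taking the higher library, was 0.501 FPKM. Depth is unknown, since too few low values were present to recover the worth of a read, and no interval could be given.

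Members and gene lists were chosen with earlier results of these data known. Named were all members past 2-fold, the most abundant gene, highest and lowest fold change of each role, and the extremes of each comparison list; other genes, named to complete a complex, were chosen after their values were seen. Fold changes used a pseudocount of 1 FPKM. GC content and length came from the longest protein-coding transcript in GENCODE 29, and promoters from RefSeq. Alternatives were 3 other scalings, pseudocounts of 0.1, 0.5 and none, a minimum of 1 FPKM in both libraries, removal of the GC trend by lowess with a span of 0.3, and thresholds of 1.5-fold and 4-fold. Scripts were tested on simulated data. Calculations ran in Python 3.11.15 with pandas 2.3.3 and numpy 2.4.6, correlations in scipy 1.17.1, lowess in statsmodels 0.14.6 and plots in matplotlib 3.10.9. The other experiments of the study were not analysed here. The value of 1 gene is not reported here.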

Additional observations from a re-analysis of the deposited data

How the results depend on the processing

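No paired analysis was possible because there was a single library on either side, which also means that none could be left out. Under the 8 alternatives of scale, pseudocount, filter and GC content, the members' median stayed below 0 and no member was higher by 2-fold. The median was -0.38 when scaled by the upper quartile, -0.37 when scaled by the total without the 20 most abundant genes, and -0.60 with the GC trend removed, against -0.49 on the deposited scale; the first pair follows from scaling, which raised every bort-treated value, and the cause of the last was not tested. The number lower by 2-fold was 14 under both of these scalings, where NOL12, NOP9, RRP1B and UTP20 no longer passed, and 13 without the GC trend. With thresholds of 1.5-fold and 4-fold, 28 and 0 members were lower, and 1 and 0 were higher. Of the 18 members lower by 2-fold, all 18 stayed below 0 in every alternative run and 10 stayed past 2-fold. Of the 51 members below 0, 45 stayed there, and of the 8 above 0, 5 stayed above it. BOP1, counted among the 18, the 10 and the 45, had no GC value, so only 7 of the 8 alternatives cover it. Over the whole table, 888 genes were higher and 1125 lower by 2-fold, so that 44.1% of these calls were higher; this share was 54.1% with the upper quartile (1112 and 944) and 54.4% without the 20 most abundant genes (1120 and 939). Medians of roles and comparison lists were recomputed as an addition chosen after seeing the data. Unknown depth limits the precision of every value.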

Other observations

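Levels of genes for E-box-binding factors were read as well, outside the rule for named genes. MYC had 6.64 FPKM in the untreated and 5.69 FPKM in the bort-treated library (-0.19), and its partner MAX had 9.82 and 10.5 FPKM (0.09). The antagonist MNT had 4.68 and 4.47 FPKM (-0.06). MXD1, also an antagonist, had 0.472 and 1.31 FPKM (0.65), a low level at which the pseudocount of 1 FPKM makes the fold change smaller. With the GC trend removed, MYC was at 0.03, MAX at 0.20, MNT at 0.41 and MXD1 at 0.40, so the signs for MYC and MNT depended on this step.

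Of 193 genes that carry small nucleolar RNA genes but are not members, 16 were higher and 16 lower by 2-fold, 8.29% each, near the shares of all genes (8.08% and 10.2%). Their median log2 fold change was 0.03 on the deposited scale.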
